A study of Mus musculus with 24 samples.

Results

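Fragments of mouse ileum cultured with the bile acid tauro-chenodeoxycholic acid (tCDCA) were set against fragments cultured with an extract of Asbt-/- mice in the form called CME(+). The titles of the samples picked 8 of the 24 libraries of the series, replicates 1 to 4 of tCDCA and replicates 1 to 4 of KO CME(+). In every library the tissue was ileum of wild-type male C57BL/6J mice that had been starved for 4 h and whose ileal fragments were then cultured for 8 h. KO stands for the genotype of the mouse that gave the extract, so no library has a deleted gene. tCDCA replicates 2 to 4 are labelled 200 µM, and the label of tCDCA replicate 1 gives no concentration. KO CME(+) replicates 2 to 4 carry extracts of 3 different donors. CME is not spelled out, and CME(+) was taken as the extract from which bile acids had been depleted, because the labels give 200 µM for tCDCA and CME(-) replicates of the second run but for no CME(+) library. Levels are also given for 3 KO CME(-) libraries, extracts taken as still holding bile acids, for 3 WT CME(+) libraries, and for 3 libraries of the solvent DMSO at 0.6%. The groups tCDCA and KO CME(+) differ in the bile acid and also in the extract itself and its depletion. They may differ in solvent too, and these differences cannot be told apart in this comparison. The labels do not tell if each fragment was taken from its own animal, and the p-values cover only the variation among these libraries, which could be technical.

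Bile acids are made in the liver, released into the gut with meals and taken back up in the ileum by the carrier Asbt, the product of Slc10a2. Inside ileal enterocytes they bind FXR, a nuclear receptor encoded by Nr1h4, which raises the hormone gene Fgf15. FGF15 travels to the liver and restrains bile acid synthesis there. Chenodeoxycholic acid is among the strongest natural ligands of FXR, and its taurine conjugate needs a carrier to cross the apical membrane. Bile acids are also detergents and can act on membranes and on surface receptors such as TGR5, encoded by Gpbar1.

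The 8 libraries held 3.02 to 5.6 M counts each from QuantSeq, a method that reads each mRNA near its 3' end. Replicate 1 of both groups came from a first run and replicates 2 to 4 from a second, as the column names show, and run was a term of the model. Mitochondrial rRNA took 7.69, 33.1, 5.29 and 28.1% of the counts in tCDCA replicates 1 to 4, and 6.78, 17.6, 18.8 and 19.0% in KO CME(+) replicates 1 to 4. The group means were 18.6 ± 14.1% with tCDCA and 15.5 ± 5.88% with KO CME(+) (SD, n = 4 each), a difference of 3.02 percentage points with p = 0.714 by a two-sided exact permutation test, whose smallest possible p is 0.0286. tCDCA replicate 3 stands apart from the other second-run libraries by its low share, so the calls that depend on it are named. The label ileum fits the markers, since Fabp6, which encodes the ileal bile acid binding protein, was at 2624 to 7548 CPM with tCDCA and 2632 to 5264 CPM with KO CME(+). Smooth muscle genes were present too, their 12 markers summing to 1453 to 2812 CPM with tCDCA and 1370 to 1599 CPM with KO CME(+), and fragments of this kind hold many cell types. A lower level of a gene can mean fewer cells of a type or less RNA per cell, and the 2 cannot be told apart here.

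With tCDCA, Fgf15 and a set of cytokine and chemokine genes were higher than with the KO CME(+) extract, and genes of 7 brush border enzymes and 4 amino acid carriers were lower. Of 13125 genes tested 253 were called, 1.93%, at a Benjamini-Hochberg adjusted p under 0.05 in edgeR's quasi-likelihood test. There were 114 higher (0.869%) and 139 lower (1.06%), and 84 differed at least 2-fold, 45 of them higher and 39 lower. The median absolute log2 change of the called genes was 0.85, and the median log2 change of all genes was 0.003. For 122 of the 253 called genes no tCDCA library overlapped any KO CME(+) library, 47 higher and 75 lower. Over all 13125 genes this held for 553, 4.21%, with 2.01% higher and 2.2% lower. The call rests on the run term, without which 3 genes were called, 2 higher and 1 lower. Without scaling factors 152 were called, 28 higher and 124 lower, so that 18.4% were higher in place of 45.1%, and the median of all genes moved to -0.105. In 203 genes called in the second-run libraries the first-run pair of libraries had the same direction in 168, 82.8%. The share over all genes was not computed, and the first run has 1 library per group here. The median first-run change in that direction was 0.46 on the log2 scale, against a median absolute change of 1.01 in the second run. Anpep, Fosl1 and Fgf15 were the 3 genes of the 253 that passed the threshold in all 19 alternative analyses. Leaving out KO CME(+) replicate 3, 1 or 4 or tCDCA replicate 3 or 2 moved the number of called genes by more than 1.5-fold, to 118, 147, 149, 159 and 166. Without tCDCA replicate 3, the calls described below were lost for the epithelial genes Abcg2, Enpep, Mep1a, Sis, Slc13a1, Dgat2, Spink4, Defa5, Defa26 and Defa30, for the cytokine, wound-type and stress genes Ccl2, Cxcl1, Cxcl2, Ptgs2, Areg, F3 and Trib3, and for Actg2, Igha and mt-Nd4. Without KO CME(+) replicate 1 further calls were lost, among them Plaur, Slc7a11, Slc3a1, Ang4 and Cldn4, which had held without tCDCA replicate 3. Ccl4 and Il1b were followed across alternatives only through the count of their list.

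**Figure D1:**
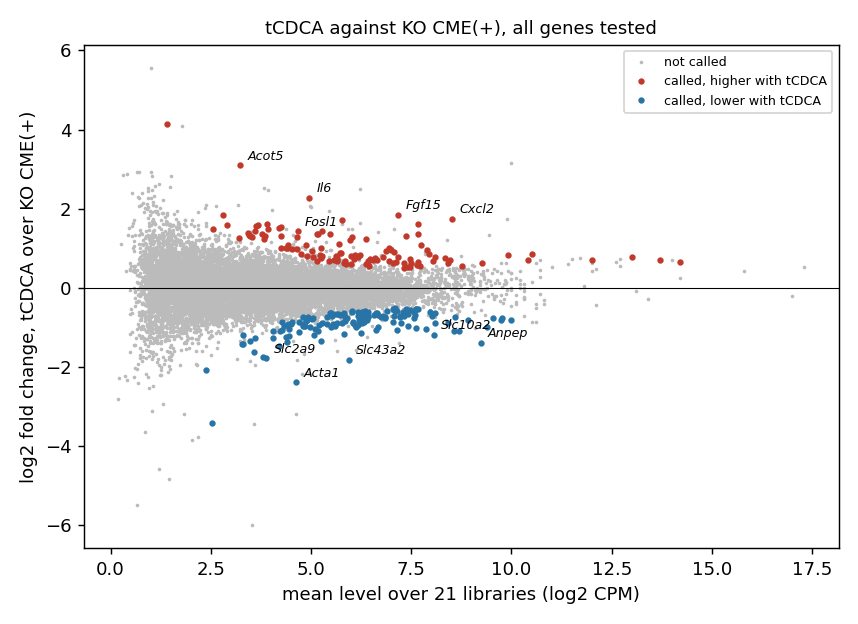
Log2 fold change of tCDCA over KO CME(+) for each of the 13125 genes tested (vertical axis) against the mean level over the 21 libraries of the model in log2 CPM (horizontal axis). Red points are the 114 called genes that were higher with tCDCA and blue points the 139 that were lower, and Fgf15 and Il6 lie high above the grey cloud while Acta1 and Anpep lie below it.

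Fgf15 (ENSMUSG00000031073) was at 265, 174, 272 and 249 CPM in tCDCA replicates 1 to 4, against 59.0, 48.3, 74.1 and 83.3 CPM in KO CME(+) replicates 1 to 4. Every tCDCA library lay above every KO CME(+) library, the first-run pair included. The fold change was 3.58 (log2 1.84 ± 0.27, SE, 95% interval 1.27 to 2.40, adjusted p = 0.00111). Within the runs the log2 change was 2.16 in the single first-run pair and 1.76 in the second run. Beside these, Fgf15 averaged 288 CPM in the KO CME(-) libraries and 7.03 CPM in the DMSO libraries, and KO CME(+) itself stood 3.14 log2 units above DMSO (adjusted p = 0.000136). The extract taken as depleted was thus above the solvent and below tCDCA for this gene.

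Slc10a2 (ENSMUSG00000023073), which encodes the carrier Asbt, moved the other way. Its level was 94.98, 168, 104 and 162 CPM in tCDCA replicates 1 to 4, against 219, 347.5, 282 and 355 CPM in KO CME(+) replicates 1 to 4. All tCDCA libraries lay below all KO CME(+) libraries, and the level was 2.28-fold lower (log2 -1.19 ± 0.20, 95% interval -1.61 to -0.77, adjusted p = 0.00125). The first-run pair gave -1.20 and the second run -1.18. tCDCA against DMSO had a log2 change of -1.77 (adjusted p = 6.37e-06) and KO CME(+) against DMSO -0.59 (adjusted p = 0.166). The call of Slc10a2 was lost in 1 of the 19 alternatives, the model without the run term.

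Of the other genes of bile acid handling few passed the test. Sqstm1, which encodes the autophagy adaptor p62 and is known as an FXR target in the ileum, was at 418, 344, 287 and 335.5 CPM with tCDCA, against 254, 212, 188 and 208 CPM with KO CME(+). It rose 1.60-fold without overlap (log2 0.68 ± 0.14, adjusted p = 0.00288). Abcg2, an apical efflux pump, fell by 0.56 ± 0.14 on the log2 scale (adjusted p = 0.0245), at 111 to 145 CPM with tCDCA and 159 to 224 CPM with KO CME(+). Its call was lost in 9 of the 19 alternatives, among them the second-run libraries alone and the 8 libraries alone. The receptor gene Nr1h4 was at 13.2 to 27.8 CPM with tCDCA and 28.1 to 40.6 CPM with KO CME(+), log2 -0.61 ± 0.23, and did not pass the threshold (adjusted p = 0.192) although no libraries overlapped. Slc51a and Slc51b, the subunits of the basolateral exporter, had log2 changes of -0.05 ± 0.19 (95% interval -0.44 to 0.34, adjusted p = 0.959) and 0.27 ± 0.18 (-0.09 to 0.62, adjusted p = 0.584). Fabp6 was at 7548, 2624, 6668 and 3205 CPM with tCDCA and 5264, 2632, 3128 and 3423 CPM with KO CME(+). Its libraries overlapped, and the change was 0.46 ± 0.20 (adjusted p = 0.307). Nr0b2, which encodes the FXR-induced repressor SHP, had no count in the 8 libraries, and Gpbar1 had at most 5, so neither was tested. In all, 2 of 9 tested FXR targets rose and 1 fell with a median log2 change of -0.05, and of 14 tested receptors and carriers of bile acids 0 rose and 2 fell with a median of -0.27.

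**Figure D2:**
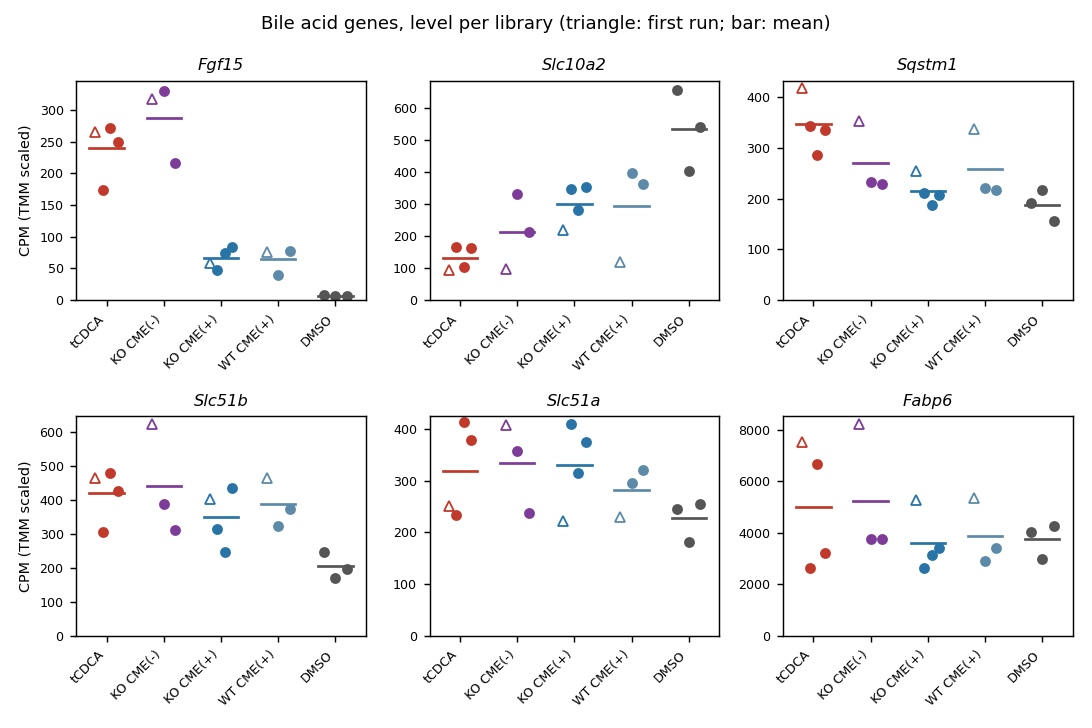
Level in CPM after TMM scaling (vertical axes) of 6 bile acid genes in each library of 5 groups (horizontal axes), with first-run libraries as open triangles, second-run libraries as filled circles and the group mean as a bar. Fgf15 lay at 174 to 272 CPM with tCDCA, against 48.3 to 83.3 CPM with KO CME(+), Slc10a2 was lower with tCDCA, and the points of Slc51b, Slc51a and Fabp6 overlap.

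The promoter of Slc10a2 holds a match to the AP-1 letters TGANTCA, the kind of site bound by FOS and JUN family proteins. A match was in 8.18% of the promoters of genes called lower and in 7.81% of all promoters, which are close. The site was picked after the changes had been seen, and its part in the fall of Slc10a2 was not tested. The match starts 118 bases before the transcription start, and 100 bases around it are shown from RefSeq, GRCm38.p6 chr8:5105346-5105445, minus strand, with the match in capitals. Both strands were searched, and these letters are their own reverse complement apart from the middle base.
Slc10a2: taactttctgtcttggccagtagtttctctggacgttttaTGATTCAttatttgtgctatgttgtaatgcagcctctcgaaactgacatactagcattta

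Cytokines and chemokines gave more genes that rose than any other of the 43 lists. In the list of NF-kB and inflammatory genes, 10 of 25 tested members rose and 0 fell, with a median log2 change of 0.99, against 0.003 for all genes. The 10 were Il6, Cxcl2, Il11, Cxcl1, Cxcl3, Lif, Ccl4, Ptgs2, Ccl2 and Il1b. They code for secreted signals of inflamed or injured tissue, among them ligands of the IL-6 family (Il6, Il11, Lif) and attractants of neutrophils (Cxcl1 to Cxcl3) and monocytes (Ccl2), while Ptgs2 encodes the inducible enzyme of prostaglandin synthesis. Without tCDCA replicate 3, 4 of the list passed the threshold, and without the run term 0 did.

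Il6 (ENSMUSG00000025746) was at 117, 42.4, 31.1 and 13.8 CPM in tCDCA replicates 1 to 4, against 55.1, 5.36, 4.16 and 3.70 CPM in KO CME(+) replicates 1 to 4. Within each run tCDCA was higher throughout, but the first-run KO CME(+) library lay above the second-run tCDCA libraries, so that the groups overlap when runs are pooled. The log2 change was 2.27 ± 0.40 (4.84-fold, adjusted p = 0.00508), with 1.08 in the first-run pair and 2.73 in the second run. For the chemokines too, KO CME(+) replicate 1 was the highest library of its group. Cxcl1 was at 581, 298, 279 and 173 CPM with tCDCA, against 416, 65.7, 63.2 and 70.0 CPM with KO CME(+), and rose 3.03-fold (log2 1.60 ± 0.32, adjusted p = 0.0172, 0.48 in the first run and 1.92 in the second). Cxcl2 was at 974, 730, 599 and 358 CPM with tCDCA, against 625, 136.5, 138 and 139 CPM with KO CME(+), log2 1.74 ± 0.38 (adjusted p = 0.0287, 0.64 and 2.04 in the first and second run). The 3 second-run KO CME(+) libraries lay close together for these genes and below all tCDCA libraries. Cxcl3 was at 40.1, 16.6, 19.8 and 18.2 CPM with tCDCA, against 36.0, 2.95, 4.94 and 3.52 CPM with KO CME(+), with log2 changes of 0.16 in the first run and 2.26 in the second (1.60 ± 0.35 in all, adjusted p = 0.00908).

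Lif, unlike these, did not overlap between the groups. It was at 24.2, 46.15, 59.5 and 27.0 CPM with tCDCA, against 13.5, 14.75, 14.05 and 12.2 CPM with KO CME(+), and rose 2.85-fold (log2 1.51 ± 0.28, adjusted p = 0.00126). Il11 rose by 1.72 ± 0.33 (adjusted p = 0.00891), at 48.7 to 170 CPM with tCDCA and 19.2 to 77.2 CPM with KO CME(+). Ccl2 rose by 1.29 ± 0.26 (adjusted p = 0.0118) and was at 109 to 487 CPM with tCDCA and 60.2 to 304 CPM with KO CME(+), with its highest value in both groups in the first run. Ptgs2 rose by 1.37 ± 0.30 (adjusted p = 0.0245), at 464, 309, 325 and 183.5 CPM with tCDCA and 337.5, 105, 75.4 and 87.6 CPM with KO CME(+). Members that did not pass were Csf3 (log2 1.89, adjusted p = 0.242), Tnf (1.10, 0.506), Tnfaip3 (0.52, 0.387), Nfkbia (0.20, 0.642) and Il18 (-1.03, 0.139). In the model with a term for the difference between runs 1 gene was called, the predicted gene Gm8730. For that term 632 of 13125 genes had an unadjusted p under 0.05, where chance gives about 1 in 20. No inflammatory gene was called, but the term rests on 1 first-run library per group. It therefore cannot decide whether the changes of these genes were alike in the runs. Leaving out tCDCA replicate 3 or 2, or KO CME(+) replicate 3 or 4, ended the call of Cxcl1, and leaving out tCDCA replicate 3 ended that of Ccl2. The call of Cxcl2 was lost in 7 and that of Ptgs2 in 6 of the 19 alternatives.

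Few markers of immune cells passed the test. Cd14, which encodes a receptor for bacterial lipopolysaccharide and is made by myeloid and some epithelial cells, was at 108, 25.45, 33.2 and 35.2 CPM with tCDCA, against 59.9, 9.38, 7.28 and 15.2 CPM with KO CME(+), and rose 2.55-fold (log2 1.35 ± 0.23, adjusted p = 0.000577). It was the only one of 15 myeloid markers called, and their median was -0.03. Myeloid markers summed to 165 to 467 CPM with tCDCA and 138 to 455 CPM with KO CME(+), and those of T and NK cells to 11 to 81.75 CPM with tCDCA and 10.4 to 103 CPM with KO CME(+). Igha, the constant region of IgA, fell by 0.83 ± 0.20 (adjusted p = 0.0241), the only called one of 5 tested B and plasma cell markers, and lost its call in 10 alternatives. Cd8a, Cd79a and Mzb1 were among the lymphocyte markers with too few counts to test. Markers of adipocytes and mesothelium, at 43.6 to 549 CPM in all with tCDCA and 21.3 to 402 CPM with KO CME(+), were highest in the first-run library of each group, as the chemokines were. Fabp4, the most abundant of them, was at 228, 69.2, 43.6 and 57.2 CPM with tCDCA, against 167, 27.35, 19.5 and 22.6 CPM with KO CME(+), so that it was higher with tCDCA within each run (log2 1.02 ± 0.30, adjusted p = 0.0958). The adipocyte gene Adipoq was at 73.7 CPM with tCDCA and 50 CPM with KO CME(+) in the first run, and at 0 to 2.71 CPM with tCDCA and 0 to 0.185 CPM with KO CME(+) in the second. The part of these cells in the cytokine result was not tested.

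**Figure D3:**
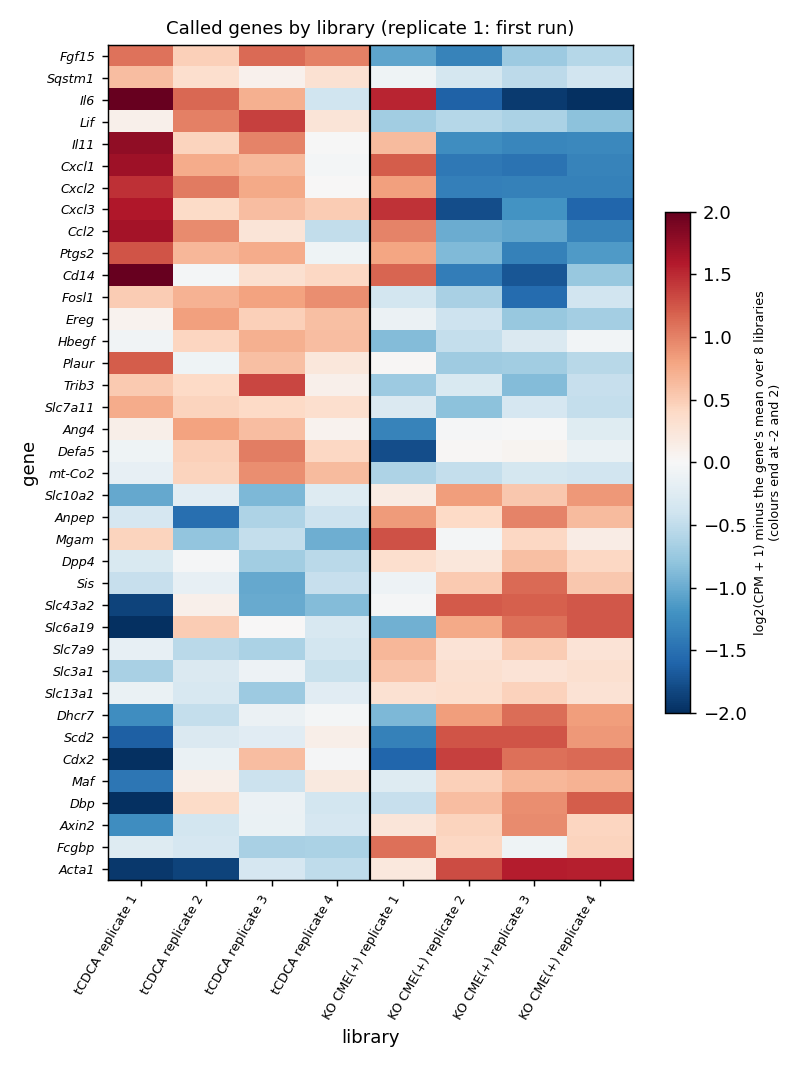
Called genes in rows and the 8 libraries in columns, tCDCA left of the black line and KO CME(+) right of it, with colour giving log2(CPM + 1) minus the gene's mean over the 8 libraries. Fgf15, Lif and Fosl1 are red in each tCDCA column and blue in each KO CME(+) column, whereas Il6, Cxcl1 and Cxcl3 are red in the first-run column of both groups.

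Promoters of 4 of these genes are shown because the genes moved together and sites for NF-kB are well known in them. The kappaB motif searched has 3 G, 2 bases of any kind, 3 T and 2 C in that order, and was looked for on both strands of 300 bases per gene, 250 before and 50 after the start, as RefSeq gives them for GRCm38.p6. The 120 bases before the start are given with matches in capitals, for Cxcl1 at chr5:90891125-90891244, Cxcl2 at chr5:90903779-90903898, Cxcl3 at chr5:90785981-90786100 and Il6 at chr5:30012994-30013113, all on the plus strand.
Cxcl1: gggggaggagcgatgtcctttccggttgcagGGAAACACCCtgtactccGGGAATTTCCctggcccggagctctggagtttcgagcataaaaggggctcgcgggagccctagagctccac
Cxcl2: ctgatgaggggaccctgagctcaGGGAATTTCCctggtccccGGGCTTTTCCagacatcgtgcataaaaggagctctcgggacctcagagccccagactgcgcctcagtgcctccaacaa
Cxcl3: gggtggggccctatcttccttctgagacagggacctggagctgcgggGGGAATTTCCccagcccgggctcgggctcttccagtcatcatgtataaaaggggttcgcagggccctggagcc
Il6: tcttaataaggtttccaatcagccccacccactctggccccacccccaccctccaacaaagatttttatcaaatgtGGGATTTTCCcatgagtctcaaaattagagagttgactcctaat

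The nearest match started 71, 78, 73 and 44 bases before the start in Cxcl1, Cxcl2, Cxcl3 and Il6, and Cxcl1 to Cxcl3 share the run GGGAATTTCC. RefSeq promoters were at hand for 73 of the 114 genes called higher, and 8 of them held a match, 11.0%. A match was in 0 of 110 promoters of genes called lower and in 1.63% of all 32851 promoters. The 32851 are every promoter listed, not the first per symbol, and are not limited to genes tested, so the sets are unlike. The letters and the promoters shown were chosen after the changes and the matches had been seen, out of 9 motifs searched, so these shares are a description. A looser form, with any base in place of the first T, was in 17.8% of the higher, 7.27% of the lower and 5.56% of all promoters, and a stricter one, with A before the 3 T, in 5.48%, 0 and 0.32%. AP-1 letters TGANTCA were in 16.4% of the higher, 8.18% of the lower and 7.81% of all promoters. The ATF4 letters TGATGNAA were in 6.85%, 0.909% and 3.97%, the cyclic AMP element TGACGTCA in 5.48%, 0 and 1.79%, and the D-box TTATGNAA in 4.11%, 2.73% and 3.38%. Neither of 2 forms of the FXR inverted repeat was in a promoter of a called gene, and they were in 0.0396% and 0.0883% of all.

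In the list of wound-type epithelial genes 6 of 22 tested members rose and 0 fell, with a median of 0.62, and the 6 were Ereg, Plaur, Hbegf, F3, Areg and Cldn4. Ereg, Hbegf and Areg encode ligands of the EGF receptor. Ereg was at 139, 232.5, 183 and 202 CPM with tCDCA, against 122, 98.7, 77.8 and 81.8 CPM with KO CME(+), and rose 2.02-fold without overlap (log2 1.01 ± 0.17, adjusted p = 0.000577, 0.19 in the first run and 1.26 in the second). Hbegf was at 245, 347, 421 and 397 CPM with tCDCA, against 140, 184, 211.5 and 248 CPM with KO CME(+), and rose 1.80-fold (log2 0.84 ± 0.15, adjusted p = 0.000727). Plaur, the urokinase receptor gene, was at 96.3, 38.7, 62.9 and 48.4 CPM with tCDCA, against 41.95, 24.7, 25.0 and 27.6 CPM with KO CME(+) (log2 1.01 ± 0.22, adjusted p = 0.0065). For Hbegf and for Plaur 1 tCDCA library lay below the highest KO CME(+) library. Sprr2h and Krt6a, keratinocyte-type genes of the list, had log2 changes of 1.94 and 1.48 and did not pass (adjusted p = 0.0998 and 0.359). Without scaling factors 1 of the 22 passed, and without tCDCA replicate 3 there were 4. F3, Areg and Cldn4 lost their calls in 10, 9 and 6 of the 19 alternatives. The log2 change of F3 was -0.07 in the first-run pair and 0.86 in the second run.

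Fosl1 (ENSMUSG00000024912), an AP-1 subunit gene, was at 38.35, 43.8, 47.5 and 51.5 CPM with tCDCA, against 20.4, 16.6, 8.58 and 20.4 CPM with KO CME(+). All tCDCA libraries lay above all KO CME(+) libraries, the rise was 2.70-fold (log2 1.43 ± 0.23, adjusted p = 0.000371), and it passed in all 19 alternatives. Dusp1, a MAP kinase phosphatase gene, was at 167 to 210 CPM with tCDCA and 98.8 to 118 CPM with KO CME(+) and rose 1.72-fold (log2 0.78 ± 0.14, adjusted p = 0.00126). These 2 were the called ones of 16 immediate early genes, whose median was 0.45. Fos and Egr1 had log2 changes of 0.37 and 0.50 (adjusted p = 0.206 and 0.0803). AP-1 letters were found in the promoters of Lif and Plaur, 228 and 69 bases before the start. Their part in the changes was not tested. Shown are 100 bases each on the plus strand from chr11:4257318-4257417 and chr7:24462374-24462473 of GRCm38.p6, with the matches in capitals.
Lif: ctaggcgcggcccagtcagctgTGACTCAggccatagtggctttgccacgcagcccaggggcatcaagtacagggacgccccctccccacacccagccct
Plaur: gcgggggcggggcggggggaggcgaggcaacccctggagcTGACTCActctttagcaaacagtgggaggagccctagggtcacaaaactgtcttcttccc

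Stress responses were mixed. Trib3, a pseudokinase gene induced by ATF4, was at 29.4, 26.8, 52.2 and 21.7 CPM with tCDCA, against 11.8, 16.1, 10.7 and 14.4 CPM with KO CME(+), and rose 2.46-fold without overlap (log2 1.30 ± 0.26, adjusted p = 0.00322). Its call was lost without tCDCA replicate 3. Slc7a11, the cystine carrier gene driven by ATF4 and NRF2, rose 1.97-fold (log2 0.98 ± 0.21, adjusted p = 0.00705), at 35.8 to 47.7 CPM with tCDCA and 15.55 to 22.85 CPM with KO CME(+). They were 2 of 22 tested ATF4 genes called, 0 fell, and the median was 0.38, with Asns at 0.60 (adjusted p = 0.101), Chac1 at 0.52 (0.235) and Atf3 at 0.03 (0.967). In the unfolded protein response 1 of 18 rose and 1 fell. Herpud1, of the degradation machinery of the endoplasmic reticulum, rose by 0.88 ± 0.19 (adjusted p = 0.0065), and the chaperone gene Pdia4 fell by 0.94 ± 0.19 (adjusted p = 0.00274). No heat shock gene of 13 was called, with a median of 0.13, and of 17 NRF2 targets Slc7a11 was the only one.

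Among the genes that fell, markers of absorptive enterocytes gave the most calls of the 43 lists. Of 21 tested enterocyte markers 0 rose and 7 fell, with a median log2 change of -0.60, and the 7 were the brush border enzyme genes Anpep, Sis, Mgam, Dpp4, Mep1b, Mep1a and Enpep. Anpep (ENSMUSG00000039062), which encodes aminopeptidase N, was at 346, 153, 282.5 and 328 CPM in tCDCA replicates 1 to 4, against 792, 575, 865 and 677 CPM in KO CME(+) replicates 1 to 4. The groups did not overlap, the level was 2.62-fold lower (log2 -1.39 ± 0.20, 95% interval -1.81 to -0.98, adjusted p = 0.000289), and the call held in all 19 alternatives. Dpp4, another peptidase gene, was at 117, 143, 89.0 and 99.9 CPM with tCDCA, against 183, 169, 221 and 193.5 CPM with KO CME(+), and was 1.70-fold lower without overlap (adjusted p = 0.00596). The sucrase-isomaltase gene Sis was at 322, 395, 216.5 and 320.5 CPM with tCDCA, against 413, 634, 972 and 641 CPM with KO CME(+), and passed the threshold narrowly (log2 -0.99 ± 0.26, adjusted p = 0.0495), missing it in 12 of the 19 alternatives. Lct, which encodes lactase, had a log2 change of 2.06 and the carrier gene Slc5a1 one of -0.62, and neither passed (adjusted p = 0.718 and 0.0639). The calls of Mep1a, Mep1b and Enpep were lost in 12, 11 and 10 of the 19 alternatives. Without tCDCA replicate 3, 4 of the 21 fell, and without the run term 1 did.

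Among nutrient carriers, those of amino acids and peptides gave the most calls. Of 13 tested 0 rose and 4 fell, median -0.77. Slc43a2, a carrier of large neutral amino acids, was at 9.22, 38.35, 17.2 and 19.2 CPM with tCDCA, against 35.4, 85.0, 83.0 and 86.1 CPM with KO CME(+), and was 3.53-fold lower (log2 -1.82 ± 0.25, adjusted p = 0.000275, -1.88 in the first run and -1.76 in the second). Slc6a19, the neutral amino acid carrier of the brush border, was at 9.22, 72.3, 51.2 and 40.5 CPM with tCDCA, against 25.7, 86.9, 109.5 and 122 CPM with KO CME(+) (log2 -1.08 ± 0.19, adjusted p = 0.00111). Both overlapped only through the low first-run library of KO CME(+), and within each run all tCDCA libraries were below. Slc7a9 and Slc3a1, the subunits of the cystine carrier, fell by 0.86 ± 0.15 and 0.77 ± 0.17 without overlap (adjusted p = 0.000577 and 0.00863). Slc3a1 lost its call in 3 of the 19 alternatives, among them the second-run libraries alone. Of 10 sugar carriers and disaccharidases 0 rose and 3 fell, median -0.82. The 3 were the enzyme genes Sis, Mgam and Khk, and no sugar carrier of the list passed, with Slc2a2 and Slc2a5 at -1.82 and -1.33 (adjusted p = 0.0536 and 0.322). Without tCDCA replicate 3, 2 of these 10 genes passed. In the list of ion, phosphate and vitamin carriers 0 of 13 rose and 2 fell, median -0.63, the carbonic anhydrase gene Car4 and the sulfate carrier gene Slc13a1. Car4 lost its call in 10 and Slc13a1 in 5 of the 19 alternatives, and 1 of the 13 passed without tCDCA replicate 3 and 0 without KO CME(+) replicate 3, without the run term or with all 24 libraries. Slc2a9, a urate carrier gene, fell 3.44-fold (log2 -1.78 ± 0.28, adjusted p = 0.00035), at 3.72 to 7.05 CPM with tCDCA and 10.9 to 30.2 CPM with KO CME(+).

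Few genes of lipid handling passed the test. Dgat2, which makes triglycerides, was the called one of 18 lipid absorption genes (log2 -0.61 ± 0.17, adjusted p = 0.0369, median of the list -0.53), and its call was lost in 11 alternatives. Of 23 genes of cholesterol synthesis 0 rose and 1 fell, Dhcr7, with a median of -0.47 and 21 of the 23 below 0. Dhcr7, a late enzyme gene of the pathway, was at 8.92, 15.95, 20.6 and 22.0 CPM with tCDCA, against 11.6, 41.3, 49.9 and 40.9 CPM with KO CME(+), log2 -0.96 ± 0.22 (adjusted p = 0.00891). Scd2, a fatty acid desaturase gene, was at 65.1, 166, 173 and 221 CPM with tCDCA, against 78.8, 490, 490 and 374 CPM with KO CME(+), and fell by 1.04 ± 0.18 (adjusted p = 0.00119). In both genes the first-run pair differed little, by -0.36 and -0.27, and the second-run libraries by -1.16 and -1.27. Relative to DMSO, tCDCA was at -0.12 for Dhcr7 and 0.36 for Scd2 (adjusted p = 0.867 and 0.373), and KO CME(+) was higher by 0.84 and 1.40 (adjusted p = 0.0427 and 0.000136). Acot5 (ENSMUSG00000042540), a peroxisomal acyl-CoA thioesterase gene, had the largest rise among the genes named by the rule, 8.54-fold (log2 3.09 ± 0.58, adjusted p = 0.00703), at 5.95, 18.3, 36.6 and 43.0 CPM with tCDCA and 0.187, 1.07, 3.64 and 6.67 CPM with KO CME(+). In the list of PPAR targets and fatty acid oxidation 0 of 21 genes were called, and the median was -0.07.

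Of 13 Paneth cell markers 4 rose and 0 fell, with all 13 log2 changes above 0 and a median of 0.72, and the 4 were Ang4, Defa5, Defa26 and Defa30. Ang4, an antimicrobial ribonuclease gene, was at 979, 1591, 1397 and 953 CPM with tCDCA, against 358, 889, 903 and 762 CPM with KO CME(+), and rose 1.77-fold without overlap (log2 0.83 ± 0.18, adjusted p = 0.00891). For Ang4, Defa5, Defa26 and Defa30 the first-run log2 changes were 1.45, 1.70, 1.32 and 1.39 and the second-run ones 0.63, 0.70, 0.53 and 0.49, and with the second-run libraries alone 0 of the 13 passed the threshold. Without tCDCA replicate 3 there was 1, without scaling factors 0, and with DESeq2 9. Defensin genes are near-identical copies, so reads may have been shared among them. Of 13 goblet cell markers Fcgbp fell by 0.97 ± 0.16 (adjusted p = 0.000371), at 100.5 to 132 CPM with tCDCA and 149 to 341 CPM with KO CME(+), and Spink4 rose by 0.69 ± 0.17 (adjusted p = 0.022), with the mucin gene Muc2 at -0.15 (adjusted p = 0.74). The call of Spink4 was lost in 11 of the 19 alternatives, among them the second-run libraries alone and no scaling factors. Axin2, a Wnt target gene, fell by 1.11 ± 0.25 (adjusted p = 0.0089) and was the called one of 10 crypt and Wnt genes, with Lgr5 at 0.10 (adjusted p = 0.958). The call of Axin2 was lost in 3 of the 19 alternatives, among them the second-run libraries alone and the model without KO CME(+) replicate 3.

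Of 16 intestinal identity factors Maf and Cdx2 fell and 0 rose. Maf, a factor of mature villus enterocytes, was at 257.5, 765, 523 and 812.5 CPM with tCDCA, against 590, 988, 1116 and 1139 CPM with KO CME(+) (log2 -0.78 ± 0.16, adjusted p = 0.00419). It was lower with tCDCA in each run, and the call was lost in 4 of the 19 alternatives, among them the second-run libraries alone and the model without KO CME(+) replicate 1. Cdx2 fell by 1.04 ± 0.25 (adjusted p = 0.0199), at 2.97 CPM with tCDCA and 6.37 CPM with KO CME(+) in the first run, and at 19.3 to 33.2 CPM with tCDCA and 46.6 to 56.6 CPM with KO CME(+) in the second, and missed the threshold in 7 alternatives. Hnf4g and Hnf4a had changes of -0.80 and -0.42 (adjusted p = 0.0536 and 0.159). Dbp, a clock output gene, was the called one of 16 circadian genes and fell by 1.24 ± 0.27 (adjusted p = 0.00771), with Arntl at 0.72 (adjusted p = 0.208). The call of Dbp was lost in 3 of the 19 alternatives, among them the second-run libraries alone.

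Of 11 tested mitochondrially encoded mRNAs 4 rose and 0 fell, median 0.65, and the 4 were mt-Co2, mt-Nd1, mt-Cytb and mt-Nd4. The other 7 did not pass. mt-Co2, a subunit gene of cytochrome c oxidase, was at 94.7, 146, 204 and 166.5 CPM with tCDCA, against 68.9, 76.7, 83.0 and 81.3 CPM with KO CME(+), and rose 1.92-fold without overlap (log2 0.94 ± 0.15, adjusted p = 0.000371). Relative to the DMSO libraries, which were at 136 to 198 CPM, tCDCA was at -0.02 (adjusted p = 0.972), and the KO CME(+) level fell by 0.96 on the log2 scale (adjusted p = 0.000669). Mitochondrial rRNA, which varied between 5.29 and 33.1% of counts with tCDCA, was highest in tCDCA replicate 2 and lowest in tCDCA replicate 3, where mt-Co2 was highest. Without tCDCA replicate 3, 5 of the 11 passed, 1 did without scaling factors or with the 8 libraries alone, and 0 did without the run term. Acta1 (ENSMUSG00000031972), skeletal muscle actin, had the largest fall among the genes named by the rule, at 2.53, 2.71, 9.66 and 8.48 CPM with tCDCA, against 14.6, 32.2, 39.0 and 38.5 CPM with KO CME(+) (5.27-fold lower, log2 -2.40 ± 0.29, adjusted p = 6.92e-06). Of the 12 smooth muscle markers, a list that holds Acta1, the actin genes Acta2 and Actg2 rose by 0.69 ± 0.17 and 0.78 ± 0.19 (adjusted p = 0.0232 and 0.0229), and the median was 0.46. Both calls were lost in 9 of the 19 alternatives, among them no scaling factors and the 8 libraries alone, and the log2 change of Actg2 was -0.07 in the first-run pair and 1.05 in the second run.

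**Figure D4:**
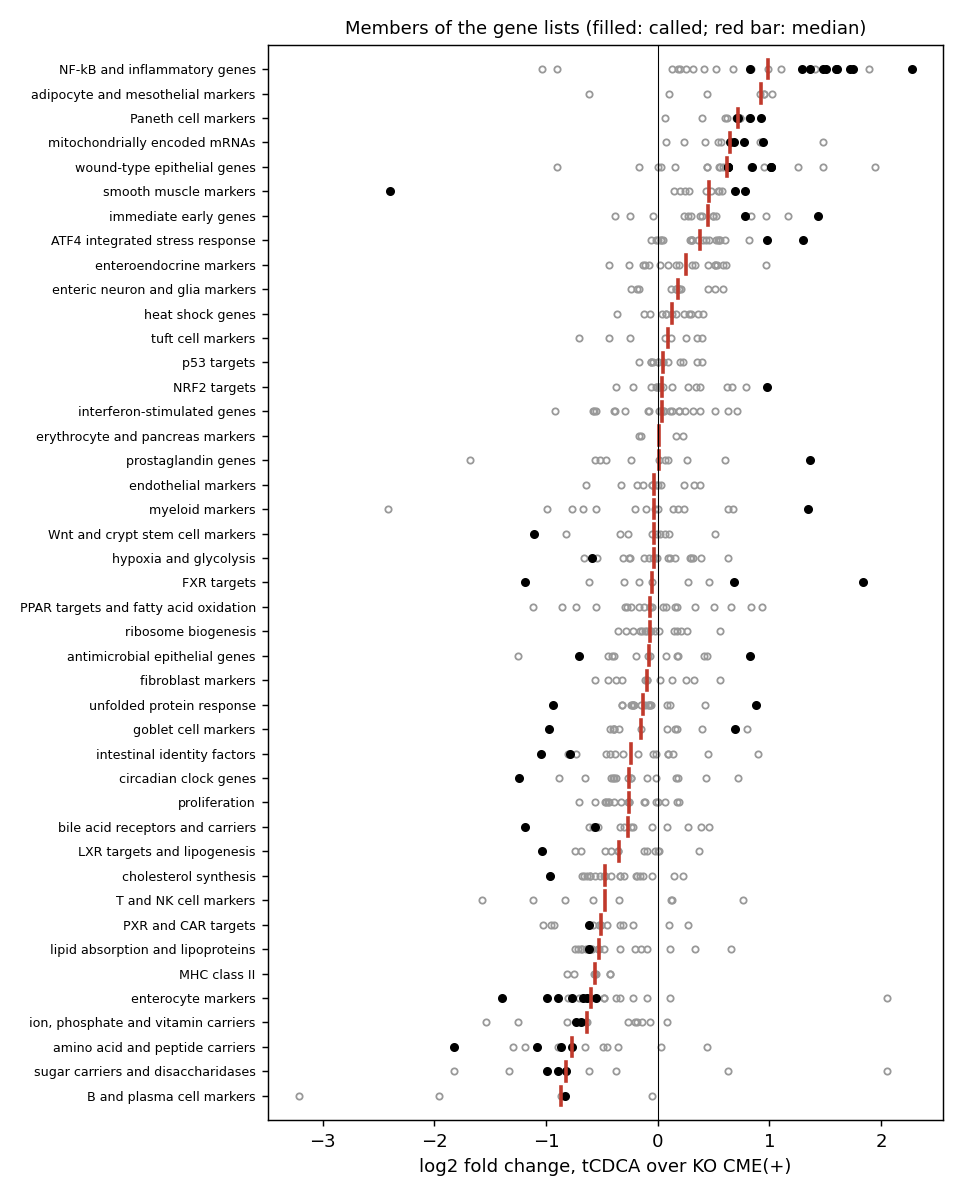
Log2 fold change of tCDCA over KO CME(+) (horizontal axis) for each tested member of the 43 gene lists (rows, in order of their median), with called members as filled points, other members as open points and the median as a red bar. NF-kB and inflammatory genes have their median at 0.99 with 10 filled points to the right, and enterocyte markers theirs at -0.60 with 7 filled points to the left.

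Lists share genes, and the prostaglandin and NRF2 lists had a call only through Ptgs2 and Slc7a11, which other lists hold too. Of the 43 lists 28 had a called member. Those with none were heat shock genes, interferon-stimulated genes, MHC class II, enteroendocrine and tuft cell markers, proliferation, ribosome biogenesis, PPAR targets, p53 targets, fibroblasts, endothelium, enteric neurons and glia, T and NK cells, adipocytes and mesothelium, and erythrocytes and pancreas. MHC class II genes had a median of -0.56 and 7 of 7 members below 0, with Cd74 at -0.75 ± 0.27 (adjusted p = 0.21). Proliferation genes had a median of -0.26, and Top2a was at -0.47 ± 0.20 (adjusted p = 0.273).

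Levels relative to the solvent place both groups, though these comparisons share libraries with the one above and with each other. DMSO had only second-run libraries in the model, so first-run libraries of the other groups enter these comparisons through the run term. Against DMSO 746 genes were called for tCDCA, 5.68%, and 303 for KO CME(+), 2.31%. The 114 genes called higher with tCDCA had a median log2 change of 0.61 for tCDCA against DMSO and -0.23 for KO CME(+) against DMSO, with 51 and 13 of them called. For the 139 called lower the medians were -0.89 for tCDCA and -0.02 for KO CME(+), with 86 and 23 called. Both sets were picked on the gap between the changes from DMSO, so the direction of each split was set in advance. Il6, for example, had log2 changes of 1.88 for tCDCA and -0.39 for KO CME(+) (adjusted p = 0.022 and 0.776) relative to 12.5, 3.497 and 3.60 CPM in DMSO replicates 2 to 4. For Anpep they were -1.55 with tCDCA and -0.16 with KO CME(+) (adjusted p = 2.16e-05 and 0.79), relative to 989, 738 and 691 CPM with DMSO. Without DMSO replicate 3 the calls numbered 327 for tCDCA and 56 for KO CME(+).

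The closest other comparisons tested what sets KO CME(+) apart from related extracts. KO CME(+) against WT CME(+) gave 0 called genes by edgeR, and by DESeq2 too. By edgeR 556 of 13125 genes had an unadjusted p under 0.05, where chance gives about 1 in 20. This comparison asks at the same time whether tCDCA differed more from one depleted extract than from the other. KO CME(-) against KO CME(+) gave 3 called genes, 0.0229%, with 0.0152% higher and 0.00762% lower, namely Fgf15 (log2 2.07, adjusted p = 0.00567) and Defa5 (1.37, adjusted p = 0.00567), which rose, and Car4 (-1.12, adjusted p = 0.0325), which fell. Labels give replicates 2 and 4 of both KO extracts the same donors, and with the replicate number as a block 19 genes were called, 9 higher and 10 lower, with the 3 genes among them.

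**Figure D5:**
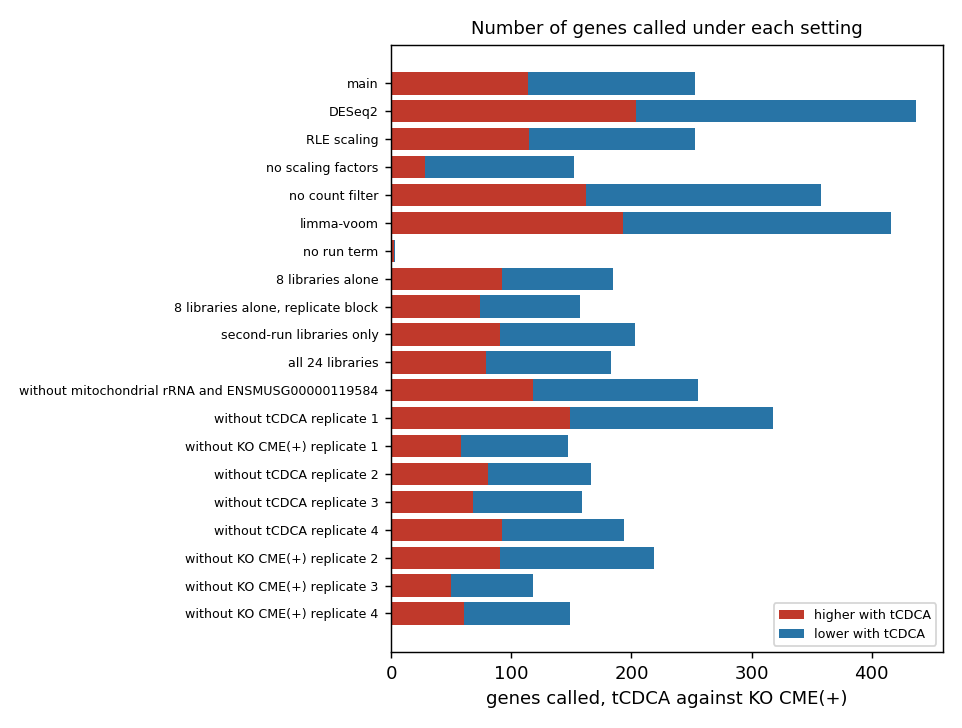
Number of genes called between tCDCA and KO CME(+) (horizontal axis, red for higher and blue for lower with tCDCA) in the main analysis and in each of 19 alternatives (rows). The count was 253 in the main analysis, between 118 and 318 with 1 library left out, and 3 without the run term.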

How the data were processed

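Libraries were made with the QuantSeq 3' kit from 100 ng of total RNA, per the labels' protocols. What the authors deposited is a single matrix of raw whole-number counts, 57126 identifiers by 24 libraries. FastQC, cutadapt, HISAT2 and Picard with GRCm39 are named, without versions, per the submitters' processing notes. How reads were counted (tool, strand, annotation) is not given in the sources used here, so overlapping genes and near-identical copies are uncertain. Symbols came from a GRCm38 annotation and named 51884 identifiers, which held 88.4% of the counts. The submitters' labels mark 3 libraries as removed, 1 for its DMSO concentration and 2 for poor mapping, and these were left out.

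Counts of 21 libraries in 6 groups were fitted in R 4.3.3 with edgeR 4.0.16 (filterByExpr, TMM scaling, 1 robust quasi-likelihood model with terms for group and run), and comparisons were contrasts of it. Tests were two-sided, p-values were adjusted over all 13125 genes, and the common biological coefficient of variation was 0.266. Levels are CPM after TMM scaling, log2 changes carry standard errors, and depth limits precision for genes of few counts. Totals of the 21 libraries ran from 2.76 to 5.6 M counts. The first run has 1 used library per group except DMSO, whose first-run library was among those left out. First-run changes are plain differences in log2 CPM between the tCDCA and KO CME(+) libraries of that run. A small prior count was added, which shrinks them for genes of few counts. Second-run changes are edgeR contrasts fitted on the second-run libraries of all groups, so the first-run and second-run values are unlike measures. On simulated counts for this comparison with 13125 genes, 60% of genes changed by log2 1 and 95% of those changed by 1.5 were recovered. Of the calls 4.32% were false. The simulation held no run effect, and its changed genes all had a mean level of 3 or more in log2 CPM. These shares therefore may not hold for the real counts, where the calls rest on the run term. Alternatives used DESeq2 1.42.0, limma 3.58.1 with voom, other scalings, filters, models and sample sets.

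Members, the 43 gene lists (630 symbols) and tests were chosen with earlier results of these data known. Genes are named by a rule: 8 bile acid genes, 15 called genes per direction by size of change, among those with a regular symbol and a mean level of 3 or more in log2 CPM, up to 6 called members per list, 2 members of lists with none, and called genes of the KO extract comparisons. Some of these are dropped from the text, and list members outside the rule (such as Csf3, Tnf or Slc2a2) were picked after their values were seen. Promoters are from RefSeq (GRCm38.p6). For called genes and for the sequences shown, the first listed per symbol was used. Shares over all promoters count every promoter listed, whatever its symbol and whether or not its gene was tested.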

Additional observations from a re-analysis of the deposited data

Results flagged for a closer look

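A library far from the other 3 of its group was looked for with Dixon's gap in 242 groups of 4, for the named genes on the log2(CPM + 1) scale and for the mitochondrial rRNA share. It was found in 32, and chance gives about 1 in 20. In 24 of them the library was KO CME(+) replicate 1, the only first-run library of its group, so that run and library cannot be told apart. Libraries were judged within groups that mix runs.

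KO CME(+) replicate 1 was above the rest of its group for inflammatory genes. It had 55.1 CPM of Il6, against 3.70 to 5.36 CPM in the others, 416 CPM of Cxcl1 against 63.2 to 70.0, 625 CPM of Cxcl2 against 136.5 to 139, 304 CPM of Ccl2 against 60.2 to 76.1, and 77.2 CPM of Il11 against 19.25 to 20.1. The same library was higher for the fat cell genes Fabp4, at 167 CPM against 19.5 to 27.35, and Adipoq, at 50 CPM against 0 to 0.185, and for the haemoglobin gene Hbb-bs, at 226 CPM against 88.2 to 100. Of mitochondrial mRNAs it held 12920 CPM of mt-Cytb against 7702 to 7759, 7079 CPM of mt-Nd1 against 4853 to 5174, and 25460 CPM of mt-Nd4 against 7996 to 9157, with 6.78% mitochondrial rRNA against 17.57 to 19.02%.

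It was below the rest for Cdx2 (6.37 CPM against 46.6 to 56.6), Scd2 (78.8 against 374 to 490), Dhcr7 (11.6 against 40.9 to 49.9), Slc43a2 (35.4 against 83.0 to 86.1) and Pdia4 (55.25 against 111 to 117). Secretory genes were lower too, with Defa5 at 25.8 CPM against 82.4 to 93.9, Defa26 at 57.5 against 139 to 157 and Spink4 at 661 against 1139 to 1234. The others were B4galnt4 (10.5 CPM against 32.2 to 39.0), Egln3 (117 against 184 to 196), Ldb3 (7.865 against 27.1 to 33.3) and Nolc1 (26.2 against 39.5 to 42.9).

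tCDCA replicate 1, likewise from the first run, held 1690 CPM of Igha against 279 to 380, 3.57 CPM of the T cell gene Cd3d against 0 to 0.261, 332 CPM of H2-Eb1 against 134 to 135, 50.5 CPM of Tnip3 against 7.81 to 9.66, and 4.01 CPM of Igsf9 against 13.9 to 17.2. tCDCA replicate 4 had 7599 CPM of mt-Nd1 against 9781 to 10010. tCDCA replicate 2 had 7.13 CPM of the predicted gene Gm20760 against 0 to 0.314, and KO CME(+) replicate 3 had 26.0 CPM of Pmaip1 against 18.35 to 19.1.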

How the results depend on the processing

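For tCDCA against KO CME(+), 253 genes were called in the main analysis, 437 with DESeq2, 416 with limma-voom, 152 without scaling factors and 3 without the run term, with 118 to 318 when 1 library was left out. The 8 libraries alone with a replicate block gave 157 called genes, 185 without the block. Replicates with the same number correlated in their deviations from the group means at 0.71, 0.16, 0.08 and 0.37, and in the second run at -0.06, -0.05 and 0.11. Numbers 2 and 3 of all 4 correlated better with another number (0.31 and 0.14). Numbers 1 and 4 correlated best with their own (highest other -0.41 and 0.29), and number 1 is also the first run. In the second run only number 4 did so (highest other 0.01). So few libraries cannot decide if the numbers are a pairing, and the main model used none. Of 81 named genes called, 78 missed the threshold in at least 1 of 19 alternatives and 0 changed direction. Slc51a, not called, ranged from -0.184 to 0.087 with 1 library left out and was above 0 without tCDCA replicate 1 (0.023), tCDCA replicate 2 (0.087), KO CME(+) replicate 2 (0.058) or KO CME(+) replicate 4 (0.005). KO CME(-) against KO CME(+) gave 3 calls, and 56 with DESeq2, 0 without scaling factors, 1 without the run term, 19 with the replicate block and 1 to 10 with 1 library left out. KO CME(+) against WT CME(+) gave 0, and 0 to 1 with 1 library left out. KO CME(+) against DMSO gave 303, and 532 with DESeq2, 3 without the run term and 56 to 401 with 1 library left out. tCDCA against DMSO gave 746, and 427 without scaling factors, 176 without the run term and 327 to 812 with 1 library left out. The cause of these moves was not tested. Outside mitochondrial rRNA and 1 abundant unnamed gene the 8 libraries held 1.96 to 4.99 M counts, and genes such as Nr0b2 and Gpbar1 had too few of them to test. The alternatives with the motifs, the run difference, the first-run directions and the KO extract block were chosen after seeing the data.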
